A study of Danio rerio with 5 samples.

Results

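The enzymes that oxidise and conjugate foreign compounds, steroids and bile acids were followed in the upper digestive tract of adult zebrafish carrying a zCdx1b transgene and of wild-type fish. Members were all probe sets whose single gene symbol in the platform annotation, with current symbols, named a numbered cytochrome P450 (cyp), a glutathione S-transferase (gst), a UDP-glucuronosyltransferase (ugt) or a sulfotransferase (sult). The rule found 87 probe sets for 65 genes among 15502 probe sets that were not controls. By enzyme class these were 36 probe sets for 28 genes of P450 families 1 to 4, 33 for 20 genes of P450 families 5 and above, 8 for 8 glutathione S-transferase genes, 9 for 8 sulfotransferase genes and 1 for 1 glucuronosyltransferase gene. A further 4 probe sets that list a family member among several symbols were left out.

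Tissue was pooled from 3 fish at a time, all 3 months old and of AB background. The zCdx1b transgenic group had 3 such pools and the wild-type group 2, with 1 array for each. The transgenic fish came from eggs microinjected with a Tol2 transposon construct, zK5p-zCdx1b-EGFP, in which a zebrafish keratin 5 promoter drives zebrafish Cdx1b and EGFP, together with transposase RNA. Keratin 5 is a keratin of stratified epithelium, and Cdx1b is a caudal homeobox transcription factor of the intestine. The labels call the pools biological replicates. How many founder lines there were, what sex the fish had and where the dissection began and ended is not stated in the labels. No probe set bore the name of the transgene's own gene, so its level was not analysed here.

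Cytochrome P450 enzymes insert oxygen into fat-soluble molecules with electrons supplied by a reductase or by ferredoxin. Members of the low-numbered families mostly oxidise foreign compounds and fatty acids, whereas the higher-numbered families mostly work on steroids, sterols, bile acids, retinoids and vitamin D. Glutathione S-transferases, glucuronosyltransferases and sulfotransferases then attach glutathione, glucuronic acid or sulfate, which makes the products soluble and ready for export. In vertebrates the liver and the absorptive epithelium of the intestine hold much of this chemistry.

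Values are the deposited log2 expression values, and a change is the transgenic mean minus the wild-type mean on that scale, with the standard error from limma. A probe set was called when its limma p, adjusted by the Benjamini-Hochberg method over all tested probe sets, was below 0.05. Tests were made on 10335 probe sets, those at or above the 40th percentile on 2 or more of the 5 arrays. A value counted as background when it did not exceed the highest of 44 bacterial and tag control probe sets on its array, a bound of 3.72 to 3.95 on transgenic arrays and of 3.64 and 4.13 on wild-type arrays. The higher bound belonged to wild-type pool 2, which also had the highest mean of 18 spike-in control probe sets, at 9.54 against 8.05 to 8.68 on the other arrays, and the lowest spread of values. Where both wild-type pools lay in the background, a rise is written as at least N-fold, the transgenic mean set against the bound.

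Tissue markers set the groups apart, so they are given before the enzymes. All 11 measured hepatocyte markers of 12 listed were called higher, and 9 of them lay in the background in both wild-type pools. Their summed level was 14.30 to 14.68 on the log2 scale in transgenic pools, against 7.03 to 7.25 in wild-type pools. All 10 measured intestinal absorptive markers of 12 were called higher, with summed levels of 15.02 to 15.22 in transgenic pools, against 8.46 to 8.99 in wild-type pools. In the wild-type pools 4 of these 10 lay in the background on both arrays, although the tissue is labelled as digestive tract. The 8 exocrine pancreas markers were all called higher, at 15.42 to 15.62 in transgenic pools, against 7.07 to 7.10 in wild-type pools. Of these 8, 6 lay in the background in both wild-type pools. Of 10 squamous epithelium markers 9 were called lower, at 11.98 to 12.73 in transgenic pools, against 14.20 to 14.34 in wild-type pools. The part of these tissues in the enzyme changes was not tested, and in bulk tissue fewer cells of a type and less RNA per cell cannot be told apart.

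Tested enzyme genes were mostly higher in the transgenic pools. Of the 87 probe sets, 58 passed the filter on low values and 29 did not. Among the 58, 36 probe sets for 30 genes were called higher, 4 probe sets for 3 genes were called lower and 18 were not called. Over all tested probe sets, 21.8% were called, 10.1% higher and 11.7% lower. The median change over all 87 members was 0.33, against -0.07 over all 15502 probe sets. A total of 46 of the tested members (79.3%) had no overlap between the groups, against a background of 50.9% of tested probe sets. In 39 of the 58 all transgenic pools lay above both wild-type pools, against 2073 of all 10335 tested probe sets. The filter favours genes that are high in the larger group. Of the tested members, 19 passed it only through transgenic arrays. Of these 19, 17 were called higher, against 362 of 615 such probe sets in all. Among the 39 tested members that reached the filter level in at least 1 wild-type pool, 19 were called higher, against 681 of 9720 such probe sets in all.

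**Figure D1:**
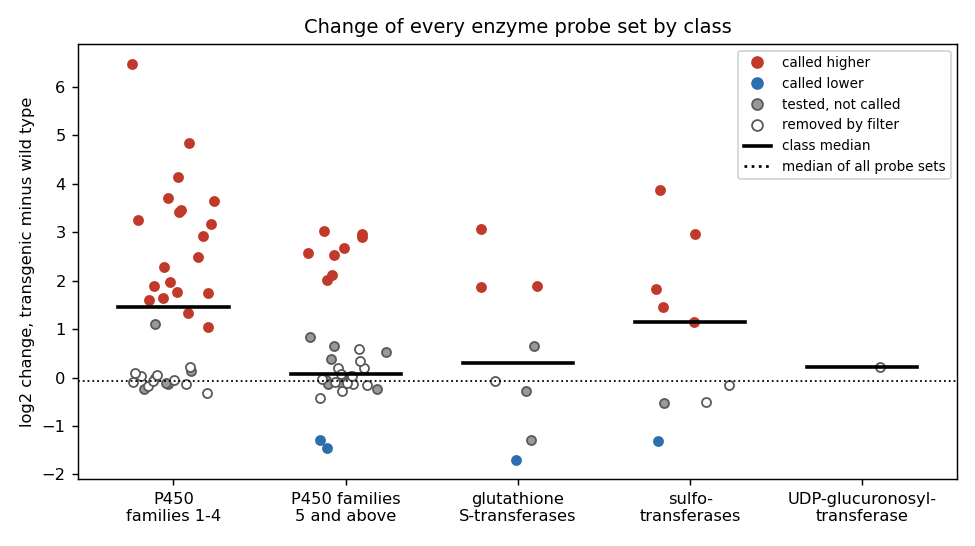
Log2 change (transgenic minus wild type) of every member probe set, including those removed by the filter, with 1 column of points per enzyme class, coloured by call, a bar at each class median and a dotted line at the median of all probe sets. Most called points lie above 0; the 4 called below 0 belong to P450 families 5 and above, the glutathione S-transferases and the sulfotransferases.

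Among P450 families 1 to 4, 20 probe sets for 16 genes were called higher and none was called lower. A further 5 were not called and 11 did not pass the filter. Of the 20 called higher, 12 passed the filter only through transgenic arrays. Of 13 tested probe sets that reached the filter level in a wild-type pool, 8 were called higher, against 681 of 9720 in all. The median change over all 36 probe sets was 1.46. The fish-specific cyp2k subfamily, whose zebrafish member cyp2k6 can activate aflatoxin, held the member with the largest rise. Its gene cyp2k22 read 10.79, 10.54 and 10.19 in transgenic pools, against 3.62 and 4.42 in wild-type pools. All transgenic pools thus lay far above both wild-type pools, the first of which was in the background. The change was 6.48 ± 0.34 (SE, limma adjusted p = 0.000144), an 89.3-fold difference of the group means.

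Other cyp2k genes rose as well. cyp2k18 read 8.77, 8.43 and 8.10 in transgenic pools, against 3.16 and 4.03 in wild-type pools, a change of 4.84 ± 0.36 (limma adjusted p = 0.00059). Both wild-type values were background, so the rise was at least 23.4-fold. cyp2k19 read 6.74, 6.41 and 6.02 in transgenic pools, against 2.80 and 3.07 in wild-type pools, and was at least 5.67-fold higher. cyp2k6 read 7.42, 7.06 and 6.74 in transgenic pools, against 3.21 and 4.11 in wild-type pools, and was at least 9.11-fold higher. These genes were in the background in both wild-type pools and above it in every transgenic pool. The remaining measured gene of the subfamily, cyp2k8, lay in the background on all 5 arrays, with a mean of 2.57 in transgenic and of 2.65 in wild-type pools.

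The gene cyp1a encodes the P450 induced through the aryl hydrocarbon receptor, which oxidises planar aromatic pollutants. It read 9.84, 9.57 and 9.19 in transgenic pools, against 4.01 and 6.75 in wild-type pools. The transgenic pools lay together and above both wild-type pools, which stood 2.74 apart from each other. The change was 4.15 ± 0.77 (limma adjusted p = 0.0144), a 17.8-fold difference of means. Set against wild-type pool 2 alone the change was 2.78, and set against wild-type pool 1 alone it was 5.52. With 1 wild-type pool the gap between these pools cannot enter a test, so only the sizes are given. The other measured genes of its family, cyp1c1 and cyp1d1, were not called or not tested, with changes between -0.32 and 0.14 over their 4 probe sets.

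The gene cyp3a65 encodes a zebrafish member of the CYP3A subfamily, which in humans oxidises many drugs and steroids. Its first probe set read 9.40, 9.32 and 9.05 in transgenic pools, against 5.22 and 6.03 in wild-type pools. The second read 10.06, 10.02 and 9.73 in transgenic pools, against 6.27 and 7.26 in wild-type pools. Neither overlapped between the groups and both stood above the background in every pool. Their changes were 3.64 ± 0.32 and 3.17 ± 0.34 (limma adjusted p = 0.00107 and 0.00218), a 12.4-fold and a 9.0-fold difference of means. Of the fish subfamily cyp3c, cyp3c3 read 7.14, 6.65 and 6.56 in transgenic pools, against 3.71 and 3.99 in wild-type pools, the second of which was in the background. It rose by 2.93, a 7.61-fold difference of means, and both probe sets of cyp3c1 were called higher, with changes of 1.74 and 1.33. Without transgenic pool 2 the cyp3c1 changes were 1.72 and 1.30, nearly as large, but missed the threshold (limma adjusted p = 0.0552 and 0.104).

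The cyp2p and cyp2ad subfamilies of fish are related to mammalian CYP2J, an epoxygenase of fatty acids. cyp2p9 read 7.29, 6.85 and 6.38 in transgenic pools, against background values of 2.95 and 3.32 in wild-type pools. The groups lay far apart, with a change of 3.70 ± 0.31 (limma adjusted p = 0.000939), at least 7.74-fold. cyp2p6 read 8.78, 8.49 and 8.16 in transgenic pools, against 7.89 and 6.85 in wild-type pools. Its groups did not overlap either, but with a change of 1.11 ± 0.38 it did not pass the test (limma adjusted p = 0.0914). cyp2ad2 had changes of 1.98 and 1.88 on the probe sets that were called and -0.14 on a probe set that did not pass the filter. Without transgenic pool 2 its calls were lost, at limma adjusted p = 0.0798 and 0.0733 with changes of 2.00 and 1.88, and without wild-type pool 2 the first was lost, at 0.0543 with a change of 1.31.

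**Figure D2:**
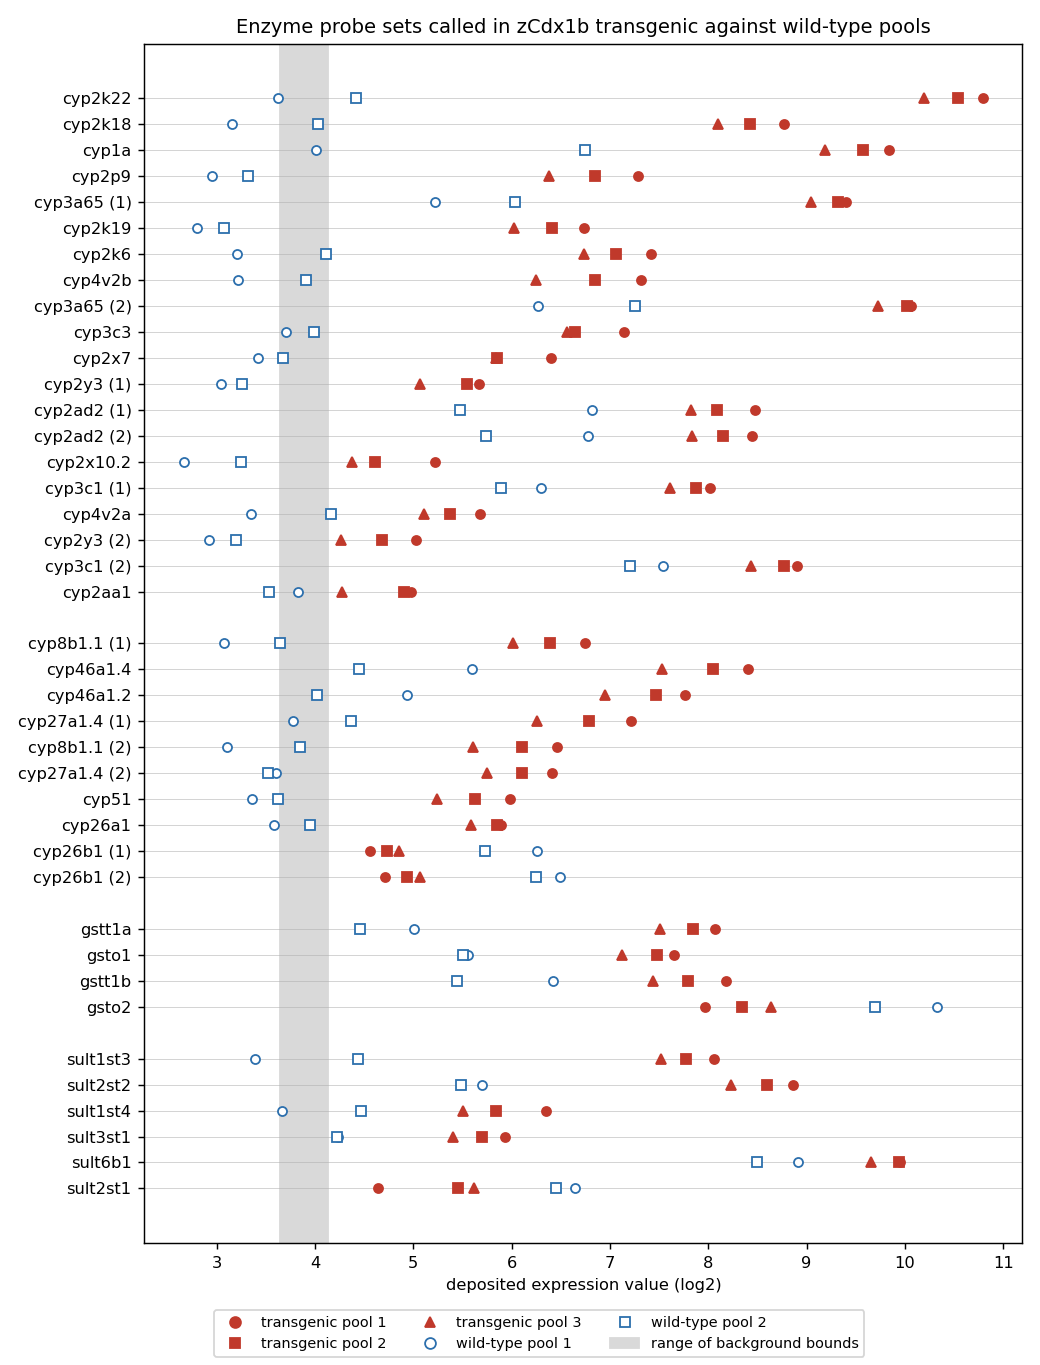
Deposited log2 values of the 40 called member probe sets, 1 row each, grouped by enzyme class, with filled markers for transgenic pools 1 to 3, open markers for wild-type pools 1 and 2, and a grey band for the range of the background bounds. Transgenic pools lie to the right of both wild-type pools in 36 rows and to the left in the 4 rows of cyp26b1, gsto2 and sult2st1.

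The remaining called genes of these families belonged to cyp4v2, a fatty acid hydroxylase in humans, and to fish subfamilies. cyp4v2b rose by 3.25, at least 7.57-fold, and cyp4v2a by 1.63. cyp2x7 rose by 2.48, at least 4.42-fold, and cyp2x10.2 by 1.78, at least 1.80-fold. Both tested probe sets of cyp2y3 rose, by 2.28 and 1.60, at least 2.91-fold and at least 1.71-fold, and its other probe set lay in the background on all arrays. cyp2aa1 had the smallest called rise of the class, 1.04 ± 0.26 (limma adjusted p = 0.0372), with 4.98, 4.91 and 4.28 in transgenic pools, against 3.83 and 3.53 in wild-type pools. It lost its call without transgenic pool 1 or 2 or without either wild-type pool, at limma adjusted p of 0.0567 to 0.129. Without wild-type pool 1, cyp4v2a (0.0542), cyp2x10.2 (0.0706) and the second cyp2y3 probe set (0.0601) missed the threshold too. The other tested genes were cyp2aa6 at -0.14, cyp2p10 at -0.11 and cyp2r1, a vitamin D hydroxylase, at -0.24, none of them called.

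In P450 families 5 and above the directions were mixed. Of 33 probe sets, 8 for 6 genes were called higher and 2 for 1 gene were called lower. A further 9 were not called and 14 did not pass the filter. The median change over all 33 was 0.07. Of the 8 called higher, 5 passed the filter only through transgenic arrays. Of 12 tested probe sets that reached the filter level in a wild-type pool, 3 were called higher, against 681 of 9720 in all. Genes of bile acid and cholesterol breakdown were among those that rose. cyp8b1.1, the sterol hydroxylase that sets the balance of bile acids in mammals, read 6.75, 6.39 and 6.01 in transgenic pools, against background values of 3.08 and 3.64 in wild-type pools. The groups did not overlap, and the change was 3.02 ± 0.30 (limma adjusted p = 0.00167), at least 5.63-fold. Its second probe set gave 2.58, at least 4.51-fold.

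cyp27a1.4 is related to the mitochondrial sterol hydroxylase CYP27A1, which oxidises the cholesterol side chain. It read 7.21, 6.79 and 6.26 in transgenic pools, against 3.78 and 4.37 in wild-type pools, a change of 2.68. Its second probe set, in the background in both wild-type pools, gave 2.53, at least 4.60-fold. cyp27a1.1, another gene of that group, changed by 0.84 ± 0.27 without passing the test (limma adjusted p = 0.0779), although its groups did not overlap. cyp46a1 is the cholesterol hydroxylase of neurons in mammals, and both measured zebrafish copies were higher. cyp46a1.4 read 8.40, 8.05 and 7.53 in transgenic pools, against 5.60 and 4.45 in wild-type pools, a 7.81-fold difference (2.97 ± 0.44, limma adjusted p = 0.00709). cyp46a1.2 read 7.76, 7.47 and 6.95 in transgenic pools, against 4.94 and 4.02 in wild-type pools, a 7.53-fold difference of means (2.91 ± 0.39, limma adjusted p = 0.00496), with wild-type pool 2 in the background. For both copies the lowest transgenic pool stood above the highest wild-type pool.

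cyp51, the lanosterol demethylase of cholesterol synthesis, was called on 1 of its 4 probe sets. That probe set read 5.98, 5.63 and 5.24 in transgenic pools, against background values of 3.36 and 3.62 in wild-type pools. Its change was 2.13 ± 0.26 (limma adjusted p = 0.00362), at least 3.32-fold. The other 3 did not pass the filter and had changes of -0.08, 0.33 and 0.03. The first of them lay in the background on every array. The others were in the background in both wild-type pools and had transgenic means of 3.92 and 3.75, close to the bound. The rise of this gene thus rests on 1 probe set. cyp7a1b, related to the cholesterol hydroxylase that opens bile acid synthesis, was not called, with a change of 0.38 ± 0.21 (limma adjusted p = 0.257), and cyp8b1.3 had a change of 0.53 without a call. cyp7a1a was not analysed here.

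Retinoic acid is broken down by the cyp26 hydroxylases, and their genes moved in opposite directions. cyp26a1 read 5.89, 5.85 and 5.59 in transgenic pools, against background values of 3.58 and 3.95 in wild-type pools. It was at least 3.71-fold higher, with a change of 2.01 ± 0.21 (limma adjusted p = 0.00205). cyp26b1 read 4.71, 4.94 and 5.07 in transgenic pools, against 6.49 and 6.25 in wild-type pools, a change of -1.46 ± 0.22 (limma adjusted p = 0.00759). A second probe set of cyp26b1 read 4.56, 4.73 and 4.85 in transgenic pools, against 6.26 and 5.73 in wild-type pools, a change of -1.28 ± 0.24 (limma adjusted p = 0.0145). On neither gene did the groups overlap on the called probe sets. Both cyp26b1 calls were lost without transgenic pool 2, at limma adjusted p = 0.0507 and 0.0748, with changes of -1.48 and -1.29. Its other 2 probe sets did not pass the filter, with changes of -0.27 and -0.43, and cyp26c1 lay in the background on all arrays.

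**Figure D3:**
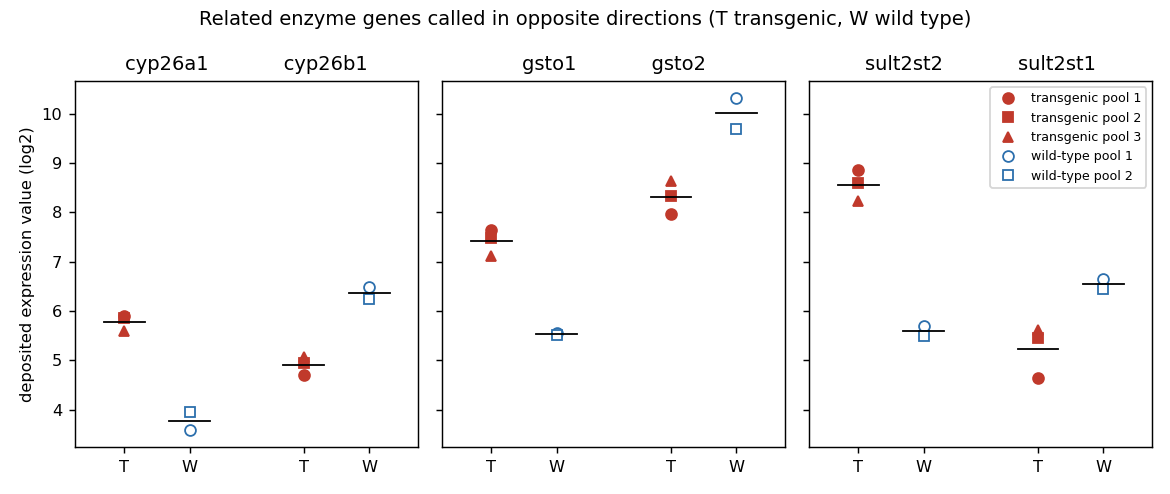
Deposited log2 values in each pool for the pairs cyp26a1 and cyp26b1, gsto1 and gsto2, and sult2st2 and sult2st1, with filled red markers for transgenic pools (T), open blue markers for wild-type pools (W) and a line at each group mean. In each pair the first gene is higher and the second lower in the transgenic pools, without overlap, and the differences between the changes are 3.48, 3.58 and 4.27.

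None of the measured genes of steroid hormone synthesis was called. cyp19a1a, the aromatase of the ovary, lay in the background on all arrays, with 3.55, 3.34 and 3.32 in transgenic pools, against 2.94 and 3.45 in wild-type pools. The brain aromatase cyp19a1b had changes of -0.15 to -0.05 on 3 probe sets. cyp11a1.1, which cuts the cholesterol side chain, read 3.31, 4.04 and 4.94 in transgenic pools, against 3.54 and 3.50 in wild-type pools, and did not pass the filter. One probe set of cyp17a1, whose product makes androgen precursors, read 3.92, 4.32 and 5.29 in transgenic pools, against 3.79 and 3.95 in wild-type pools, and was not called (limma adjusted p = 0.323). The other cyp17a1 probe set lay in the background on all arrays and did not pass the filter. On the probe sets given, both genes overlapped between the groups and were highest in transgenic pool 3. The oocyte coat gene zp3b of the ovary markers had the same order, with 3.84, 7.19 and 8.60 in transgenic pools, against 5.62 and 5.23 in wild-type pools, and its part in these values was not tested. The vitamin D hydroxylase cyp24a1 (-0.24) and cyp20a1 (0.04) were not called, and cyp11c1, cyp27a2 and cyp27c1 did not pass the filter.

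Of the glutathione S-transferases, 3 genes rose, 1 fell, 3 were not called and gstcd did not pass the filter, with a median change of 0.29. gstt1a, of the theta class, read 8.07, 7.85 and 7.51 in transgenic pools, against 5.01 and 4.46 in wild-type pools. It was 8.45-fold higher (3.08 ± 0.30, limma adjusted p = 0.00165). The other theta gene, gstt1b, read 8.18, 7.79 and 7.44 in transgenic pools, against 6.42 and 5.44 in wild-type pools, a 3.66-fold difference (1.87 ± 0.39, limma adjusted p = 0.0219). Neither gene overlapped between the groups, but gstt1b lost its call without transgenic pool 2 (limma adjusted p = 0.0748, change 1.88) or wild-type pool 2 (0.0580, change 1.38).

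The omega class, which can reduce dehydroascorbate in mammals, split. gsto1 read 7.65, 7.48 and 7.12 in transgenic pools, against 5.56 and 5.51 in wild-type pools, a 3.69-fold rise (1.88 ± 0.27, limma adjusted p = 0.00602). gsto2 read 7.97, 8.34 and 8.64 in transgenic pools, against 10.33 and 9.70 in wild-type pools, a change of -1.69 ± 0.30 (limma adjusted p = 0.0125). The groups did not overlap on either gene. Without wild-type pool 1 the gsto2 call was lost, at limma adjusted p = 0.0547 with a change of -1.38. The pi class gene gstp1.2 read 10.84, 10.76 and 10.62 in transgenic pools, against 11.23 and 10.82 in wild-type pools, which overlap (-0.28 ± 0.16, limma adjusted p = 0.272). The mu class gene gstm.1 read 6.31, 7.29 and 7.94 in transgenic pools, against 9.09 and 7.85 in wild-type pools, which overlap as well (-1.29 ± 0.58, limma adjusted p = 0.176). gstk1, of the kappa class, was not called either, with a change of 0.66.

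Of the sulfotransferases, 5 probe sets for 5 genes rose, 1 fell, 1 was not called and both probe sets of sult4a1, a neuronal form in mammals, did not pass the filter. The median change was 1.14. sult1st3, of the family that sulfates phenols and thyroid hormones, read 8.06, 7.77 and 7.52 in transgenic pools, against 3.39 and 4.44 in wild-type pools. It was 14.6-fold higher (3.87 ± 0.38, limma adjusted p = 0.00157), with wild-type pool 1 in the background. sult1st4 of the same family read 6.35, 5.84 and 5.51 in transgenic pools, against 3.66 and 4.47 in wild-type pools, a 3.56-fold rise (1.83 ± 0.35, limma adjusted p = 0.0164). Without wild-type pool 1 its change was 1.42 and the call was lost (limma adjusted p = 0.0753). The third gene of that family, sult1st1, was not called, with a change of -0.52.

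The sult2 family sulfates steroids and bile alcohols. sult2st2 read 8.86, 8.60 and 8.23 in transgenic pools, against 5.70 and 5.49 in wild-type pools, and was 7.82-fold higher (2.97 ± 0.28, limma adjusted p = 0.0015). sult2st1 read 4.64, 5.45 and 5.62 in transgenic pools, against 6.64 and 6.45 in wild-type pools, and was lower, with a change of -1.31 ± 0.34 (limma adjusted p = 0.042). Both genes kept the groups apart, in opposite directions. The call of sult2st1 was lost in 4 of the 5 tests that left out 1 pool, without transgenic pool 1 (0.0638), transgenic pool 2 (0.106), wild-type pool 1 (0.138) or wild-type pool 2 (0.0937), with changes of -1.41 to -1.01. sult3st1 read 5.93, 5.70 and 5.40 in transgenic pools, against 4.23 and 4.22 in wild-type pools, a 2.73-fold rise. sult6b1 read 9.95, 9.94 and 9.66 in transgenic pools, against 8.91 and 8.50 in wild-type pools, a 2.21-fold rise (1.14 ± 0.21, limma adjusted p = 0.0144). Without transgenic pool 2 its change was 1.1, nearly as large, and the call was lost (limma adjusted p = 0.09). The glucuronosyltransferase ugt2a1 lay in the background on all arrays, with 3.75, 3.56 and 3.30 in transgenic pools, against 3.20 and 3.42 in wild-type pools. The probe sets left out for several symbols include 1 listing ugt1a1 and ugt1ab and 1 listing ugt2a1, ugt2a2, ugt2a4 and ugt2a5. The single ugt2a1 probe set thus does not describe the class.

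Several of these genes lie in tandem groups. By gene order in the RefSeq table of assembly GRCz12tu, 9 pairs of measured members are neighbours with no other protein-coding gene between them. Both genes were called higher in 1 pair, cyp46a1.4 and cyp46a1.2. The genes were called in opposite directions in 2 pairs, gsto1 with gsto2 and sult2st2 with sult2st1. In 5 pairs 1 gene was called higher and its neighbour was not called or did not pass the filter, namely cyp2k6 with cyp2k8, cyp2p9 with cyp2p10 and with cyp2p8, cyp8b1.1 with cyp8b1.3, and cyp2aa1 with cyp2aa9. In the cyp2aa group 1 of 6 measured genes was called higher, against 4 of 5 in the cyp2k subfamily and 2 of 5 in the cyp2ad and cyp2p group. None of these genes was called lower. However, 4 of the cyp2aa genes and 1 gene in each other group did not pass the filter and were not tested. These genes lay in the background on every array, so the counts are not directly comparable. Of the genes called higher, cyp2aa1, cyp2k6, cyp2k18, cyp2k19 and cyp2p9 passed the filter only through transgenic arrays. Over all tested probe sets 10.1% were called higher, a share of tested probe sets and not of measured genes. The cyp2k count includes cyp2k22, which is not a near neighbour of the other cyp2k genes.

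**Figure D4:**
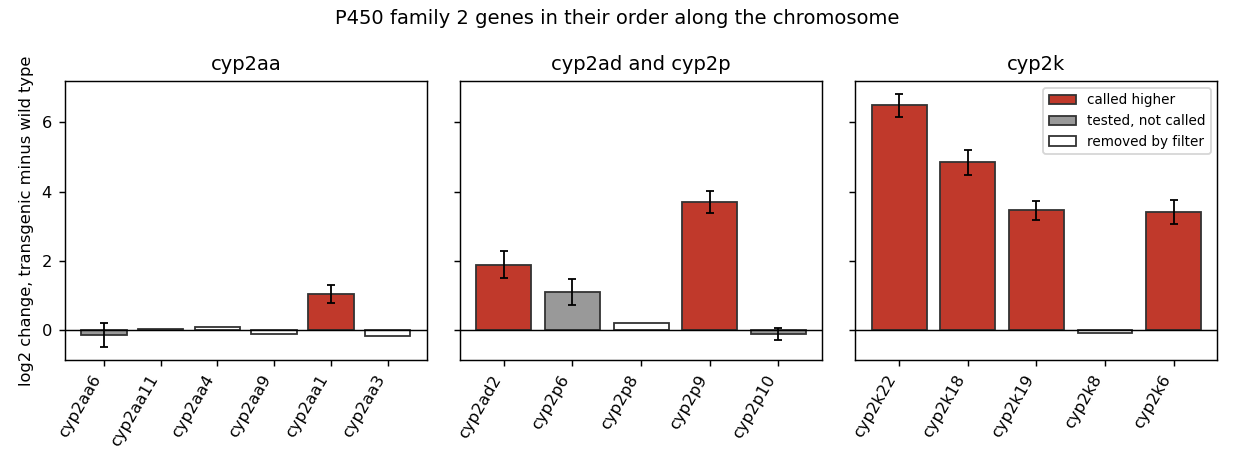
Log2 change (transgenic minus wild type) of the measured genes of the cyp2aa, cyp2ad and cyp2p, and cyp2k groups, 1 bar per gene in gene order (cyp2k22 is not a near neighbour of the other cyp2k genes), shaded by call, with error bars for the limma standard error of tested genes. Called genes stand beside genes with changes near 0, as for cyp2p9 (3.70) next to cyp2p10 (-0.11). The genes removed by the filter lay in the background on every array, so their changes near 0 do not show expressed and unchanged genes. For cyp2ad2 the probe set with the highest mean is drawn.

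Related probe sets limit this reading. Near-identical copies can share probes, and what each probe set matches was not analysed here. In 5 cases the annotation puts names with A and S endings on 1 name stem, and in 4 of them 1 ending was called and the other was not, as for cyp2y3, cyp2ad2 and cyp51. The probe sets of cyp2p8 and cyp2p9 also differ only by that ending, so cyp2p8 may not be a separate reading. Of the 14 genes with more than 1 probe set, none had probe sets called in opposite directions. For cyp17a1, cyp1c1, cyp24a1, cyp51, cyp7a1b and sult4a1 this could not occur, because at most 1 probe set of each was tested.

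Genes that serve these enzymes were drawn from a list of 75 electron donors, regulators, cofactor enzymes, further metabolic enzymes and exporters, of which 35 were measured on 41 probe sets. Of the 34 probe sets tested, 17 were called higher, 1 was called lower and 16 were not called. Over all tested probe sets 10.1% were called higher and 11.7% lower. The 5 partner probe sets that passed the filter only through transgenic arrays were all called higher, against 362 of 615 such probe sets in all. Of the 29 that reached the filter level in at least 1 wild-type pool, 12 were called higher, against 681 of 9720 such probe sets in all. Among electron donors, cyb5a, which encodes cytochrome b5, read 9.56, 9.38 and 9.02 in transgenic pools, against 6.44 and 6.17 in wild-type pools (3.01 ± 0.27, limma adjusted p = 0.00109). fdx1, the ferredoxin of mitochondrial P450s, rose by 2.16, whereas the P450 reductase gene pora did not pass the filter. Among regulators, hnf4a, a nuclear receptor of liver and intestine, was called higher on both of its probe sets, to unlike degrees. The first read 7.69, 7.54 and 6.96 in transgenic pools, against background values of 3.19 and 4.10 in wild-type pools, and was at least 11.4-fold higher. The second rose by 1.60, at least 2.74-fold. Of the measured aryl hydrocarbon receptor genes, ahr1a rose by 1.62, at least 1.77-fold. The other, ahr2, had a change of -0.88 without a call (limma adjusted p = 0.0531), with every transgenic pool below both wild-type pools. keap1a, the inhibitor of the regulator Nrf2, rose by 1.76, and the Nrf2 gene nfe2l2a was not called on either probe set (-0.01 and -0.64).

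Cofactor genes moved both ways. ugdh, which makes the glucuronic acid donor, rose by 2.62 and 1.16 on its probe sets, and gclm, of glutathione synthesis, by 1.08. The other measured glutathione genes of the list, gclc (0.46, limma adjusted p = 0.401) and gsr (-0.78, limma adjusted p = 0.0813), were not called. papss2b, which makes the sulfate donor, read 4.70, 5.35 and 5.80 in transgenic pools, against 7.39 and 6.63 in wild-type pools, a change of -1.72 (limma adjusted p = 0.0313). Its call was lost without transgenic pool 2 (0.09) or wild-type pool 1 (0.128). Among the further enzymes, the carboxylesterase gene ces3 read 7.47, 7.08 and 6.58 in transgenic pools, against background values of 2.90 and 3.19 in wild-type pools, at least 8.92-fold higher. ces2a rose by 3.69 on 1 probe set. Its other probe set lay in the background on all arrays and did not pass the filter, with a change of 0.22. The alcohol dehydrogenase gene adh8b rose by 3.23. Here fdx1, ahr1a, ahr2, keap1a, nfe2l2a, pora, gclm, gclc and gsr were chosen after their values were seen.

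The transgenic pools differed among themselves in one order. All 36 probe sets called higher read highest in transgenic pool 1 and lowest in pool 3, by a median of 0.65 (0.29 to 1.07), and all 4 called lower read lowest in pool 1 and highest in pool 3. Of all 1043 probe sets called higher, 963 had the first order, or 92.3%, and of all 1207 called lower, 594 had the second. Over all 10335 tested probe sets, called or not, 43.2% had the first order and 26.7% the second. The order was thus not particular to the enzymes. Marker lists of several tissues had such an order too. Hepatocyte markers stood 7.27, 7.13 and 6.78 above the wild-type mean in transgenic pools 1, 2 and 3, and intestinal absorptive markers 5.89, 5.67 and 5.50. Squamous epithelium markers stood at -3.36, -2.17 and -1.81 relative to that mean in the same pools.

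**Figure D5:**
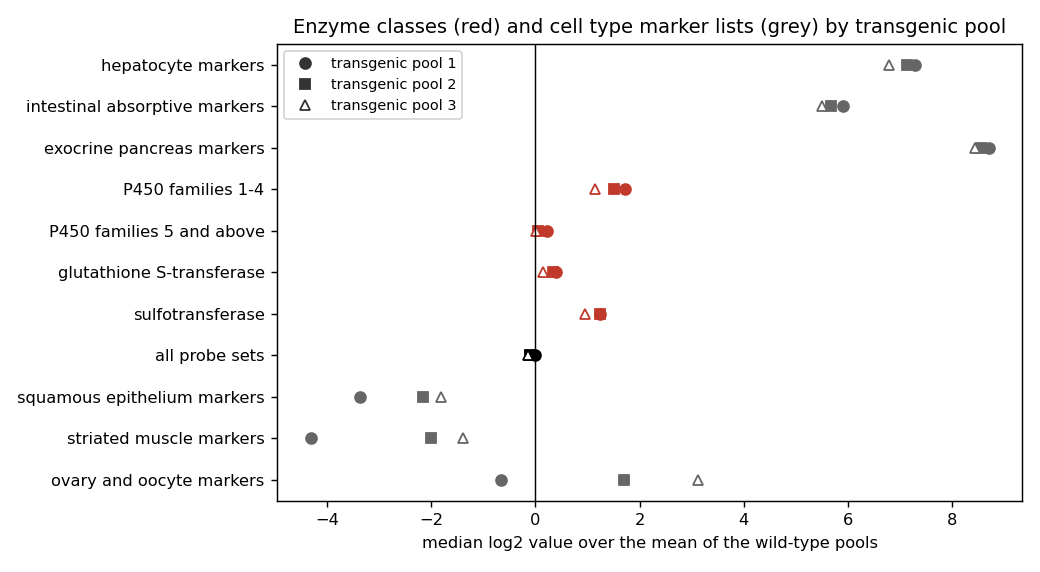
Median log2 value of each enzyme class (red), of all probe sets (black) and of tissue marker lists (grey) in transgenic pools 1, 2 and 3, relative to the wild-type mean, with a vertical line at 0. P450 families 1 to 4 read highest in pool 1 and lowest in pool 3, as do the hepatocyte markers (7.27, 7.13 and 6.78) and the intestinal absorptive markers (5.89, 5.67 and 5.50).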

How the data were processed

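Affymetrix arrays of 5 pools were analysed. The authors deposited log2 expression values, 1 for each probe set on each array. The submitters' processing notes name MAS5. Neither its version or scaling nor a genome build was found in the labels. The log2 base was taken from the range of the values, and another base would change the folds but not the tests. All arrays had a mean of 4.89, and no further normalization was applied. The number of arrays limits the precision; detection calls and intensities were not used here.

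Symbols came from the platform annotation, updated through RefSeq, and all 65 member symbols matched. Of 15502 probe sets, 10795 had 1 symbol, 135 several and 4572 none; 115 controls were left out. The groups were compared with limma 3.58.1 in R 4.3.3 (lmFit, then eBayes with its trend option, no covariate, two-sided), adjusted by the Benjamini-Hochberg method, and the fit was tested on simulated data. Members, lists and tests were chosen with earlier results of these data known. Named genes were, per class, up to 7 with the largest rise or fall past the threshold without overlap, a set of fixed genes, and up to 6 partner genes each way; all other members are given by value or count. The background bound and the setting that uses it were chosen after seeing the data. Same-numbered pools of the 2 groups correlated at -0.25 and -0.13 in their deviations from the group mean. With 2 wild-type pools the deviations of one mirror those of the other, so these values cannot decide whether the pools were paired. The main test did not treat the numbers as pairs.

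Alternatives were quantile normalization, median centring, no filter, a stricter filter at percentile 60, eBayes with no trend or a robust one, a replicate block, a 2-fold minimum, counts of genes, and each pool left out in turn.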

Additional observations from a re-analysis of the deposited data

How the results depend on the processing

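No called enzyme probe set changed direction under any alternative run. Of the 36 called higher, 25 were called under every alternative in which they were tested, and of the 4 called lower, none was. Quantile normalization, median centring, both other variance models and the replicate block left all 40 calls in place. In the replicate block transgenic pool 3 has no partner, so the changes it gives equal those without that pool. Only sult2st1 was lost without a filter, at limma adjusted p = 0.0534. With 1 pool left out, members called higher numbered 29 to 37 and members called lower 1 to 4, namely 1 when transgenic pool 2 was left out and 2 when wild-type pool 1 was. Over all probe sets, leaving out 1 pool gave 1016 to 2338 calls, 649 to 1164 higher and 367 to 1445 lower; the lowest counts were those without transgenic pool 2, and 592 were lower without wild-type pool 1. A minimum of 2-fold left 780 of all probe sets lower. The fold of cyp1a and of 1 cyp2ad2 probe set moved by more than 1.5 times when a wild-type pool was left out. Such fits keep 1 wild-type array, so the spread between the wild-type pools does not enter their tests.

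Requiring values above the background bound on every array, an alternative chosen after seeing the data, tested 8242 probe sets and 35 members. It called 1476 probe sets, 607 higher (7.36%), 16 members higher and 4 lower, 11 partner probe sets, 7 of P450 families 1 to 4 and 4 of families 5 and above; the drop follows from the 20 called members that it did not test. The pairing by number as a replicate block called 1866 probe sets, 36 members higher and 5 lower.

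The 14 rises with both wild-type pools in the background have only a lower bound. With 3 and 2 pools, a change that missed the threshold is not shown to be absent. Wild-type pool 2 had the fewest probe sets above background, 62.4% against 65.2% to 72.0% on the other arrays.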

Other observations

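Markers of other tissues gave these values in the same pools. Striated muscle markers, of which 2 of 5 measured were called lower, stood at -4.30, -2.01 and -1.40 relative to the wild-type mean in transgenic pools 1, 2 and 3. Ovary and oocyte markers, with 0 of 5 called, stood at -0.67, 1.70 and 3.11, so transgenic pool 1 was lowest and pool 3 highest on both lists. Of 6 leukocyte markers 1 was called lower, with a median change of -0.88. None of 4 erythrocyte markers was called, with a median change of 0.12. Of 2 measured kidney markers 1 was called higher, and that list shares a gene with the intestinal list.

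Among the partner genes not described above, mgst3a, a membrane-bound glutathione transferase, rose by 2.34, aldh1a2, which makes the retinoic acid that cyp26 enzymes break down, by 2.34, fmo5 by 2.30, aldh2.2 by 1.91 and the exporter gene abcc4 by 1.58. Other partner genes were tested and not called. Of these, ptgdsb.1 (-2.36), cebpa (-1.14), tiparp (-0.69), nqo1 (-0.59) and fdx2 (-0.26) read lower in every transgenic pool than in both wild-type pools. In the other direction, ephx1 (0.75), adh5 (0.60) and adh8a (0.54) read higher in every transgenic pool. All genes named in this paragraph were chosen after their values were seen.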
